A study of Mus musculus with 10 samples.

Results

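The genes described here encode the proteasome and its helpers. They were all genes of the deposited mouse spinal cord table whose symbol began with Psma, Psmb, Psmc, Psmd, Psme, Psmf or Psmg followed by a digit and whose base mean reached 10. The base mean is the authors' mean of normalised read counts over all libraries. Of the 25232 genes in the table, 50 had such a symbol and 48 reached the minimum. They comprised 14 subunits of the constitutive core, 17 subunits of the regulatory particle, 5 immunoproteasome genes (Psmb8, Psmb9, Psmb10, Psme1 and Psme2) and 12 others, which were other activators, an inhibitor, assembly chaperones, Psme2b (a copy of Psme2) and Psmc3ip (no proteasome subunit).

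RNA was sequenced from the spinal cord of female mice, labelled C57BL/6, at 90 days of age, with 5 SOD1 G93A libraries and 5 wild-type (WT) libraries. SOD1 G93A mice carry many copies of a human SOD1 transgene with a mutation that causes amyotrophic lateral sclerosis (ALS), so they model transgene overexpression as well as the mutation. The methods place the dissection in the lumbar region and call the WT mice littermates. Values of single libraries were not analysed here, and each base mean pools both genotypes, so no difference between SOD1 G93A and WT, no spread between mice and no depth per library is given. All comparisons below are therefore between genes, not between conditions, and no test was run. In bulk tissue such as this, fewer cells of a type and less RNA per cell cannot be told apart.

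The proteasome degrades proteins that carry ubiquitin chains. Its barrel-shaped core stacks outer rings of alpha subunits on inner rings of beta subunits, and Psmb5, Psmb6 and Psmb7 carry the proteolytic sites. The regulatory particle caps the core, binds ubiquitin, removes it and unfolds the substrate with a ring of ATPases. Interferon induces the immunoproteasome, in which Psmb8, Psmb9 and Psmb10 take the places of Psmb5, Psmb6 and Psmb7, while Psme1 and Psme2 form the PA28 activator. Microglia and infiltrating leukocytes are known sources of immunoproteasomes in the nervous system.

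Upstream sequences of the catalytic subunits, other than Psmb7, are shown because the pairs of interchangeable subunits differed widely in level, as described further on. RefSeq promoters (GRCm38.p6) were matched for 41 of the 48 genes, and the others were Psmb1, Psmb2, Psmb7, Psmc3, Psmd3, Psmd7 and Psmg2. RefSeq starts can lie inside the outermost gene spans given further on. Each sequence below is the 250 bases before the gene start, read 5′ to 3′ on the strand of the gene. Capitals mark any of 6 motifs on either strand, namely the antioxidant response element, the CCAAT box, the NRF1, ETS and gamma-activated sites and the interferon-stimulated response element. The windows were chr14:54617996-54618245 (minus strand) for Psmb5, chr17:34197945-34198194 (plus) for Psmb8, chr11:70525107-70525356 (plus) for Psmb6, chr17:34187331-34187580 (minus) for Psmb9 and chr8:105938393-105938642 (minus) for Psmb10.
Psmb5: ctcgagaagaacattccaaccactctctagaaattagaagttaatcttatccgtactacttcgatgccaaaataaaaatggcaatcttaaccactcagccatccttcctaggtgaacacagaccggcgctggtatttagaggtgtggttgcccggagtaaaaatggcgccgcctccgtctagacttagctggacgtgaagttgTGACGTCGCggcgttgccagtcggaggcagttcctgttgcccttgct
Psmb8: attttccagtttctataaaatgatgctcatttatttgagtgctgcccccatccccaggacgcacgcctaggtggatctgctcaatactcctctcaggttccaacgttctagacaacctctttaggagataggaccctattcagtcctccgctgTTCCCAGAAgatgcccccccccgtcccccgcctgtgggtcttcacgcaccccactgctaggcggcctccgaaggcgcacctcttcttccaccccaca
Psmb6: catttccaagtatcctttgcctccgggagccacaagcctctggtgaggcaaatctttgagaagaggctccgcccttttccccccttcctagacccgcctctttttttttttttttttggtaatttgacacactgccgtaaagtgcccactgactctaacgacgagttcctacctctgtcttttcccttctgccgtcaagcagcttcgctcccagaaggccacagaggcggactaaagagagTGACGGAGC
Psmb9: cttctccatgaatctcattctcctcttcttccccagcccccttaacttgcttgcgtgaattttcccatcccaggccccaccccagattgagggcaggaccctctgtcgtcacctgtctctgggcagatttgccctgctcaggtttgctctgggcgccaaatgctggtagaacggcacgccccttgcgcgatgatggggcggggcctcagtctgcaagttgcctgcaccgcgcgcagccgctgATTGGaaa
Psmb10: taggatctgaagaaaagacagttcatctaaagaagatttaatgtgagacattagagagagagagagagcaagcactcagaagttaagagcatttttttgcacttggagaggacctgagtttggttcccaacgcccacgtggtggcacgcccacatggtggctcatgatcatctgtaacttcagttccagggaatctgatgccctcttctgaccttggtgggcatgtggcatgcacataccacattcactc

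Psmb5 and Psmb6 each held an antioxidant response element (letters TGACNNNGC), whose first bases lay at -47 and -9 from the start. Psmb8 held a gamma-activated site (TTCNNNGAA) at -97, and Psmb9 held a CCAAT box on the opposite strand at -8. Psmb10 held none of the 6 motifs in these 250 bases. A match describes the letters only and does not show that a factor was bound.

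The constitutive core was well represented. Base means were compared between genes after division by the length of curated exons, which gives normalised counts per kilobase (kb). All 14 core and 17 regulatory particle genes lay above the median of 183.6 per kb over the 14548 genes that reached the same minimum and had a length. Their median percentile among those genes was 92.6. The 31 genes had shorter curated exons, at a median of 1.51 kb against 3.20 kb over all ranked genes, so this rank depends in part on the division by length. Without that division their median base mean was 1918, against 592 over all ranked genes. The 14 core genes together held 0.102% of all normalised counts of the table, and the 17 regulatory particle genes held 0.198%.

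Among the alpha subunits, which form the gate of the core, the level per kb ran from 497 for Psma3 to 1865 for Psma7, a 3.75-fold range with a median of 1049. Between them stood Psma2 at 659, Psma5 at 863, Psma4 at 1049, Psma1 at 1164 and Psma6 at 1464 normalised counts per kb. Their base means, before division by length, were closer to each other. They spanned 1069 for Psma5 to 1918 for Psma2, so Psma2 had the highest base mean of the ring and the second lowest level per kb. The curated exons of this ring spanned 0.914 to 2.91 kb. Over coding length Psma2 was highest at 2732 and Psma5 lowest at 1479 per kb, so the order of the alpha ring rested on the length used.

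The beta subunits had a median of 1371 per kb and a 2.23-fold range. Psmb6, a catalytic subunit that cleaves after acidic residues, was highest at 2584 per kb. Psmb5, the catalytic subunit that cleaves after hydrophobic residues and the main target of the inhibitor bortezomib, was lowest at 1160 per kb, and Psmb7, which cleaves after basic residues, stood at 1916. The subunits without a proteolytic site lay between Psmb3 at 1265 and Psmb4 at 1982 per kb, with Psmb1 at 1345 and Psmb2 at 1371. The order within the ring depended on the length used. Over all annotated exons Psmb4 was highest at 1202 and Psmb3 lowest at 421 per kb, and over coding length Psmb1 was highest at 3285 and Psmb5 lowest at 1317.

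The regulatory particle had a median of 1169 per kb, below the 1305 of the core, and a wider range, 11.2-fold against 5.20-fold. Its 6 ATPases had a median of 1646 per kb. Psmc5 was at 4299 per kb, the highest of all 48 genes, and its base mean of 5658 normalised counts was also the highest. The others were Psmc1 at 2377, Psmc3 at 1875, Psmc4 at 1417, Psmc2 at 1282 and Psmc6 at 821 per kb. Psmc5 and Psmc6, which lie in the same hexameric ring, differed 5.24-fold per kb and 3.09-fold in base mean.

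The 11 other subunits of the regulatory particle had a median of 1144 per kb. Psmd2, a large scaffold of the base that binds ubiquitin-like domains, was highest at 1854 per kb, followed by the ubiquitin receptor Psmd4 at 1750, although over coding length Psmd7 was highest at 2101. The lid subunits Psmd13 and Psmd11 were lowest, at 766 and 383 per kb. The other 7 lay between those values, among them Psmd14, the deubiquitinase of the lid, at 1012 per kb. Psmd11 was the lowest gene of the core and the regulatory particle per kb, whereas Psmb3 was lowest in base mean at 969.

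**Figure D1:**
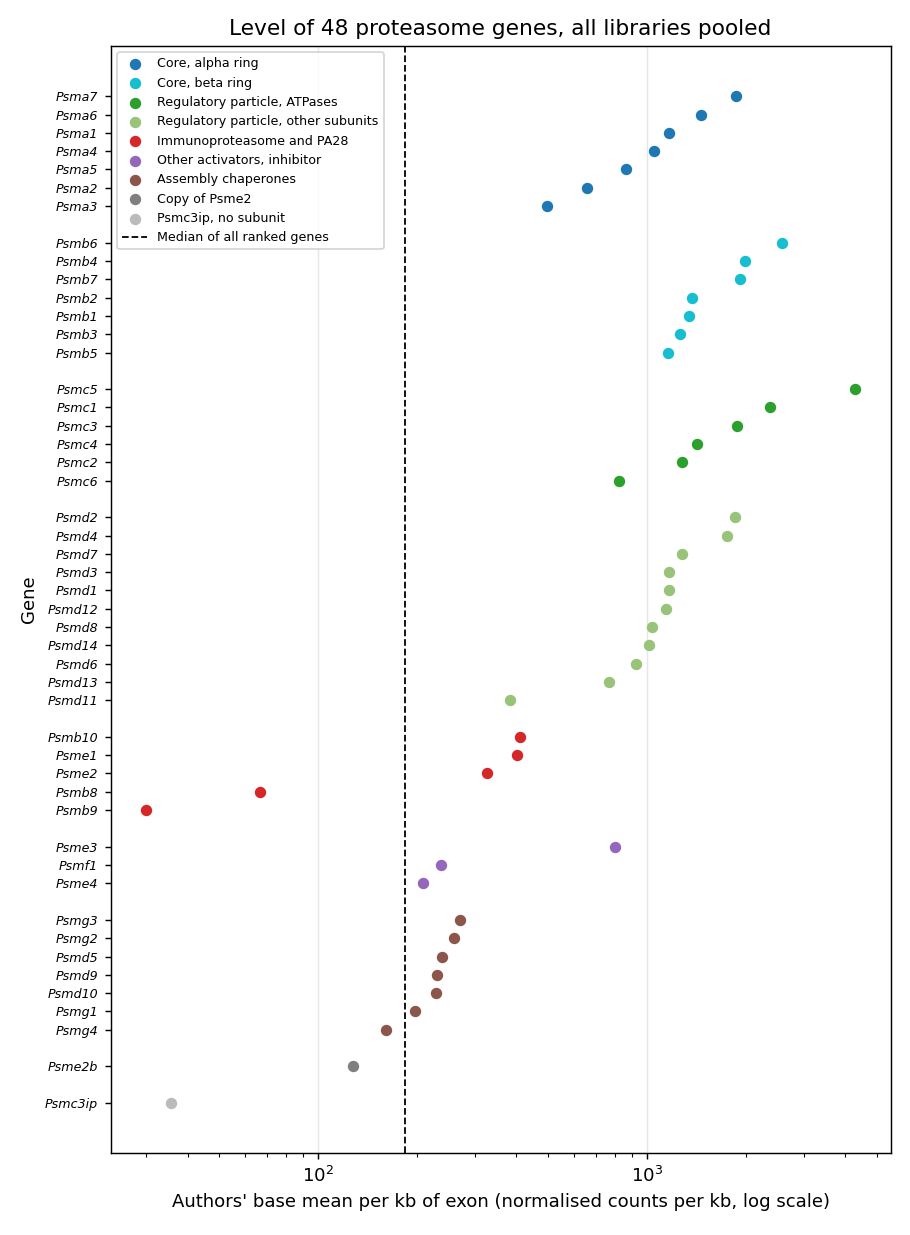
Level of each of the 48 genes by role, as the authors' base mean over all 10 libraries per kb of curated exon (horizontal log axis, 1 point per gene), with the dashed line at the median of all ranked genes (183.6). All core and regulatory particle genes lie right of the line, whereas Psmb8, Psmb9, Psmg4, Psme2b and Psmc3ip lie left of it, and points carry no error because single libraries were not analysed.

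The 5 immunoproteasome genes were lower and split into groups of unlike level. Psmb8 was at 66.7 per kb (base mean 109) and Psmb9 at 29.9 per kb (base mean 40.5), the lowest of all 48 genes. They stood at percentiles 26.9 and 15.7 among all ranked genes. Psmb10 was at 410 per kb (base mean 538), Psme1 at 402 (base mean 447) and Psme2 at 325 (base mean 317). These last genes stood at percentiles 73.0, 72.4 and 66.6, so they lay above the median gene while Psmb8 and Psmb9 lay below it.

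Each immunoproteasome beta subunit was set against the constitutive subunit whose place it takes. Psmb8 was at 5.75% of Psmb5 per kb, a 17.4-fold lower level. Psmb9 was at 1.16% of Psmb6, which was 86.3-fold lower. Psmb10 was at 21.4% of Psmb7, which was 4.67-fold lower. The subunits that enter the immunoproteasome together were therefore not at a common RNA level, and Psmb10 exceeded Psmb8 by 6.15-fold and Psmb9 by 13.7-fold per kb. Psmb8, Psmb9 and Psmb10 made up 8.22% of the summed per-kb level of the 6 catalytic beta genes.

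The order of the pairs held for each definition of gene length, whereas the sizes did not. With all annotated exons in place of curated exons, Psmb8 was at 2.77% of Psmb5 and Psmb10 at 48.6% of Psmb7. With no division by length, Psmb8 was at 10.4% of Psmb5, Psmb9 at 1.96% of Psmb6 and Psmb10 at 24.2% of Psmb7. The number of immunoproteasome genes below every core and regulatory particle gene was 3 of 5 per kb of curated exon, 2 of 5 over all annotated exons and 5 of 5 over coding length and in base mean.

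**Figure D2:**
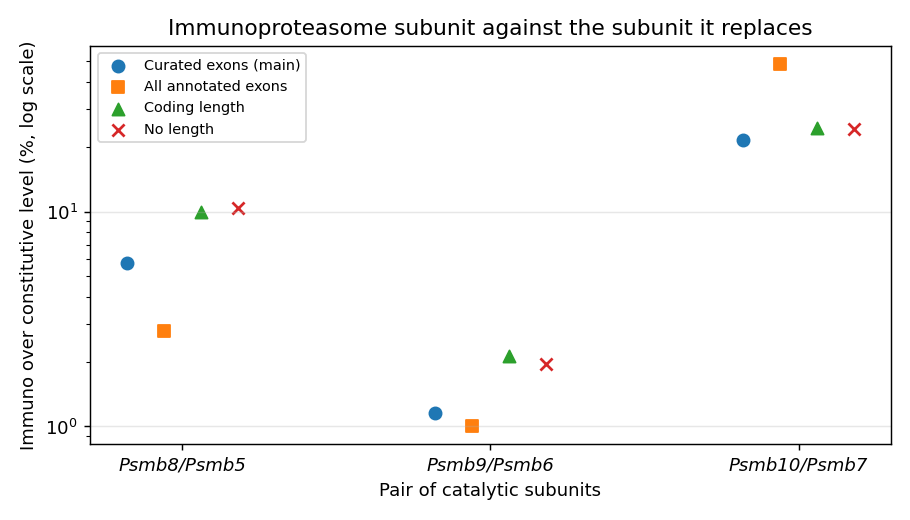
Level of each immunoproteasome beta subunit as a percentage of the constitutive subunit it replaces (vertical log axis), with 1 symbol for each way of setting the gene length. Psmb9 over Psmb6 is lowest and Psmb10 over Psmb7 highest under all 4 settings shown, at 1.16% and 21.4% with curated exons.

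The interchangeable subunits are close relatives in protein sequence. Proteins translated from the coding exons were aligned from end to end. Psmb5 and Psmb8 were identical at 57.5% of positions, Psmb6 and Psmb9 at 56.7%, and Psmb7 and Psmb10 at 57.0%. Among the 7 constitutive beta subunits the 21 pairs ranged only from 16.7 to 28.5%, with a median of 19.8%. The alpha subunits were more alike, at 23.6 to 36.0% over 21 pairs, and the 6 ATPases more so, at 34.2 to 45.9% over 15 pairs. Psme1 and Psme2, which form 1 mixed ring, were identical at 48.8% of positions.

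**Figure D3:**
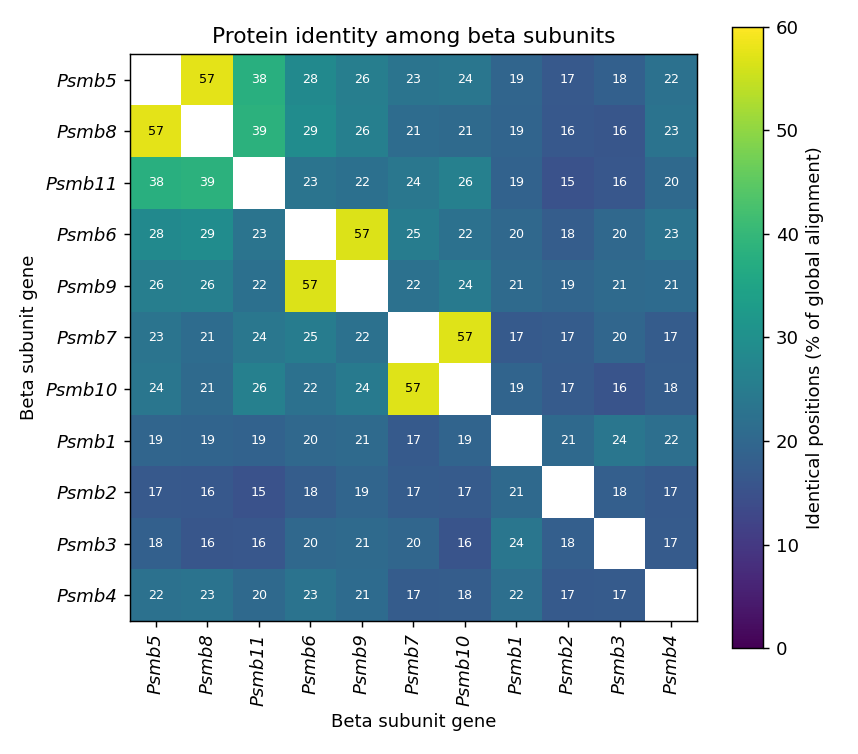
Identical positions between each pair of 11 beta subunit proteins, as a percentage of the end-to-end alignment (colour scale and printed value, both axes list genes). The 3 pairs of constitutive and immunoproteasome subunits stand at 56.7 to 57.5%, and the thymus subunit Psmb11 is at 37.9% with Psmb5 and 38.7% with Psmb8.

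The tissue-specific subunits fell below the minimum. Psma8, the testis form of Psma7 with 83.6% protein identity to it, had a base mean of 5.43. Psmb11, the thymus form that takes the place of Psmb5, had a base mean of 1.80. The lowest base means above the minimum were those of Psmb9 at 40.5 and Psmc3ip at 45.8. Psmc3ip encodes a cofactor of meiotic recombination and is no proteasome subunit, although its symbol fits the pattern.

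Activators other than the PA28 ring of Psme1 and Psme2 had no common level. Psme3, or PA28 gamma, which forms a nuclear activator ring of its own, was at 797 per kb. Psme1 was at 50.4% and Psme2 at 40.8% of that level, but over coding length they were at 21.5% and 15.9% and over all annotated exons at 28.1% and 24.96% of Psme3. Psme4, the large single-chain activator PA200, was at 208 per kb, and the inhibitor Psmf1 was at 237. Psme1 and Psme2, whose proteins assemble with each other, differed 1.24-fold per kb.

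The 7 assembly chaperones spanned 161 to 270 per kb of curated exon, a 1.68-fold range with a median of 229. That was narrower than any ring of the core, but the order was lost with other lengths, since the chaperones spanned 238 to 894 per kb of coding length and 11.7-fold in base mean, against 1.79-fold and 2.44-fold in base mean for the alpha and beta rings. Psmg1 and Psmg2, which pair to build the alpha ring, stood at 198 and 259 per kb. Psmg3 and Psmg4, the other alpha ring pair, were the highest and the lowest of the group at 270 and 161. The chaperones of the ATPase ring lay between them, with Psmd5 at 237, Psmd9 at 229 and Psmd10 at 228 per kb. The median of the group was above that of all ranked genes, and all 7 were below every core and regulatory particle gene per kb of curated exon.

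Spread across genes was compared with other multi-subunit machines of the same table. The SD of log2 levels per kb across genes was 0.64 in the core, 0.76 in the regulatory particle and 1.74 over the 5 immunoproteasome genes. It was 0.39 over 7 genes of the cytosolic chaperonin, whose median was 1784 per kb, and 1.63 over 76 ribosomal protein genes, whose median was 3008. Over all ranked genes it was 2.26. The ribosomal genes were picked by symbol and spanned 10.2 to 11877 per kb, with 73 of the 76 above the median of all ranked genes. How far their SD rested on the few lowest genes was not tested. All these SDs are spreads across genes of pooled values and carry no information on mice.

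Genes that act with the proteasome were also well represented. All 19 genes of a list of partners reached the minimum, and their median was 827 per kb. The highest were the polyubiquitin gene Ubb at 10731 per kb and Nfe2l1, a transcription factor of proteasome genes, at 2375. The lowest were Ddi2, the protease that activates Nfe2l1, at 35.2 and Nfe2l2, the transcription factor of the antioxidant response, at 316 per kb. Pomp, which matures the beta ring, stood at 1209, within the range of the beta subunits. The subunits Adrm1 and Sem1, which carry no Psm symbol, stood at 827 and 559 per kb.

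The MHC class I pathway, which presents the peptides that immunoproteasomes produce, was uneven. All 7 listed genes reached the minimum. B2m, the light chain of MHC class I, was highest at 2675 per kb, followed by the peptide-loading factor Tapbp at 366. Nlrc5, an activator of MHC class I genes, was lowest at 11.6, followed by the peptide transporter gene Tap1 at 46.4 per kb. Per kb of curated exon Tap1 therefore lay between its neighbours Psmb9 and Psmb8, and Tap2 was at 129 per kb.

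The labelled tissue was checked against defining markers. Base means were high for markers of neurons (5255 to 59050 over 3 genes), oligodendrocytes (5348 to 319615 over 3) and astrocytes (16064 to 56290 over 3), with the motor neuron genes Chat and Slc5a7 at 735 and 2316. The microglial markers Csf1r, Cx3cr1 and P2ry12 had base means of 3041, 1278 and 583. The T cell genes Cd3e and Cd8a were at 2.73 and 1.31. Endothelial markers stood at 631 and 710, the muscle genes Acta1 and Ckm at 251 and 108, and the liver genes Alb and Apoa1 at 46.8 and 22.9. Of the testis genes, Prm1 was at 6.53 and Tnp1 was listed at 0. The part of each cell type in the proteasome values was not tested.

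The immunoproteasome genes lie in small clusters. On chromosome 17 of GRCm38, Psmb9 (34181987 to 34187764, minus strand) and Tap1 (34187553 to 34197225, plus strand) overlap by 212 bases at their starts. Psmb8 (34197721 to 34201454, plus strand) begins 495 bases after Tap1 ends, and Tap2 begins 2072 bases after Psmb8 ends. The printed Psmb9 window contains the annotated Tap1 start. Psme1 and Psme2 lie 5911 bases apart on chromosome 14, with Psmb5 and Psmb11, 3410 bases apart, on the same chromosome. Psmb10 lies on chromosome 8 (105935735 to 105938444, minus strand).

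Other members share a start region with a gene on the opposite strand. A partner that began within 1000 bases upstream, with no overlap, was annotated for 8 of the 48 genes (16.7%) and for 6.79% of 21951 protein-coding genes. With overlapping starts counted as well, as for Psmb9 and Tap1, a definition added after seeing the data, the count was 12 of 48 (25%) and the share of protein-coding genes 10.9%. Unlike the members, these protein-coding genes were not limited to those that reached the minimum base mean. The closest was Psmc2 with Dnajc2, a ribosome-bound chaperone, at 32 bases. Psmc5 and Ftsj3 and also Psma2 and Mrpl32 began 75 bases apart, Psma7 and Ss18l1 76 bases, and Psmb1 and Tbp, the TATA-binding protein, 137 bases. Psmd10 and Atg4a, Psmg2 and Cep76, and Psme2 and Rnf31 followed at 179, 263 and 595 bases.

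Motifs were counted from 250 bases before to 50 bases after the start, on both strands, in 44 promoters of the 41 matched genes and in all 32851 promoters of the reference table. The members' promoters were richer in G and C, at a median of 58.2% against 52.7% over all promoters. All promoters include those of genes at any level, whereas the members had to reach the minimum base mean. No set of promoters matched for level or for G and C was compared. The GC box (GGGCGG) was found in 54.5% of member promoters and 35.7% of all promoters, the CCAAT box in 31.8% and 37.4%, and the YY1 site (AAGATGG) in 18.2% and 6.34%. The antioxidant response element was found in 13.6% of member promoters and 12.4% of all promoters. Its carriers were Psmb5, Psmb6, Psmc6, Psmd12, Psmd9 and Psme4, and the strict form TGACTCAGC was in none of the 44.

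The ETS site (CCGGAAG) differed in share between the groups of members. It was found in 36.4% of member promoters and 8.86% of all promoters. Of the 14 regulatory particle genes with a promoter, 9 held it, against 1 of 11 core genes (Psma6), 0 of 5 immunoproteasome genes and 5 of the 11 other members (Psme3, Psme4, Psmg1, Psmg3 and Psmc3ip, which is no proteasome subunit). For the 9 regulatory particle genes, most of the genes that held it, the site nearest to each start is shown. It is given with 10 bases on either side, read along the strand on which the letters are CCGGAAG, with those letters in capitals.
Psmc1: atcgccaccgCCGGAAGtgcatccacc
Psmc2: ctcttccccaCCGGAAGtagctccgcg
Psmc6: ggcgggccagCCGGAAGgggcggagcc
Psmd11: aaacacacacCCGGAAGacccgccctc
Psmd12: gtcactcgcaCCGGAAGtcgcccgctc
Psmd13: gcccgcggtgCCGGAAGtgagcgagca
Psmd2: gtcctccagaCCGGAAGcgccctgcgg
Psmd4: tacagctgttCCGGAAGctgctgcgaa
Psmd6: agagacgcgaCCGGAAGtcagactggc

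These windows lay, by gene and genome strand of GRCm38.p6, at Psmc1 chr12:100110164-100110190 (minus), Psmc2 chr5:21786713-21786739 (minus), Psmc6 chr14:45329714-45329740 (plus), Psmd11 chr11:80428594-80428620 (minus), Psmd12 chr11:107479501-107479527 (minus), Psmd13 chr7:140882378-140882404 (plus), Psmd2 chr16:20651616-20651642 (minus), Psmd4 chr3:95042723-95042749 (minus), Psmd6 chr14:14120974-14121000 (minus). The first base of the site lay within 50 bases before the start in 7 of the 9 genes, and at -100 in Psmc6 and -125 in Psmd4. In 5 of the 9 genes the site read on the strand opposite to the gene. The level per kb of curated exon of these genes ran from Psmd11 at 383 to Psmc1 at 2377. Any relation between a motif and the level of a gene was not tested. Psmc5, the highest gene, held no ETS site and held an NRF1 site (GCGCATGC) at -67.

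The interferon-stimulated response element (GAAANNGAA) was found in 15.9% of member promoters and 8.56% of all, and Psme1 was the single immunoproteasome gene with it, at 11 bases after the start. The other carriers were Psmb3, Psmb4, Psmc2, Psmd4, Psmd9 and Psmg4. The gamma-activated site was found in 6.82% of member promoters and 8.30% of all, in Psmb8, Psmd2 and Psmg1. Each of these interferon-related motifs was thus in 1 of the 6 immunoproteasome promoters. No match says only that these letters are not in these windows.

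**Figure D4:**
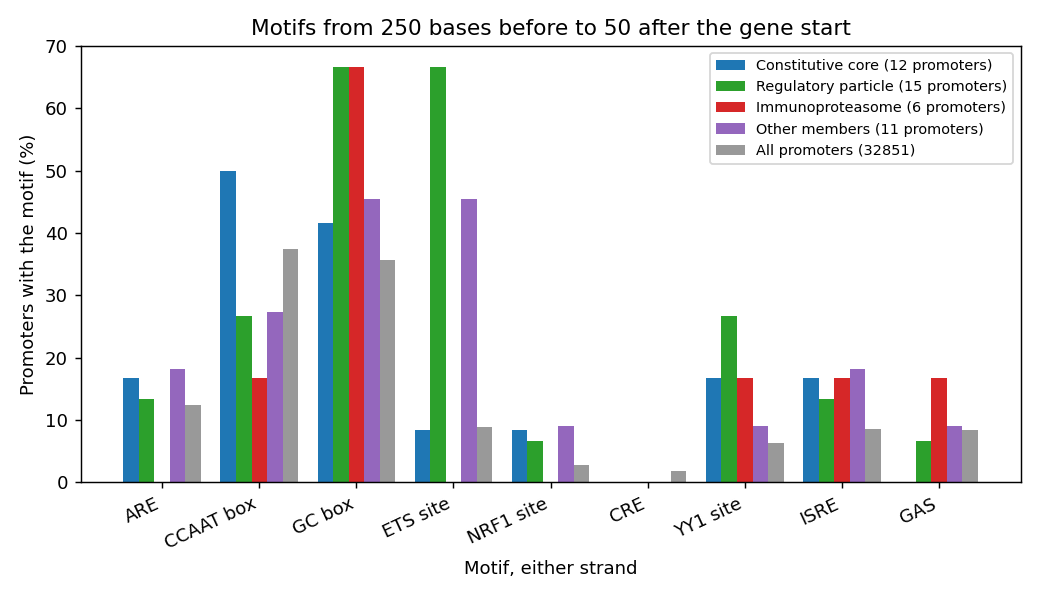
Share of promoters with each motif (vertical axis, percent, either strand) for core, regulatory particle and immunoproteasome promoters and for the other members, beside all 32851 promoters, where ARE is the antioxidant, CRE the cAMP and ISRE the interferon-stimulated response element and GAS the gamma-activated site. The ETS site is in 10 of 15 regulatory particle promoters, 1 of 12 core, 0 of 6 immunoproteasome and 5 of 11 other promoters.

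Several members share coding sequence with another annotated gene. Where that gene is a copy elsewhere, this bears on counts of uniquely mapped reads. In the coding part, 20 of the 48 genes matched another annotated gene at 90% identity or more over at least 100 bases, with 41 matches in all, 30 of them to pseudogenes. The longest matches of Psmg3 to Gm26938, Psmd1 to Gm21972, Psmb8 to Gm20496, Psmb7 to Nek6 and Psmb5 to Mir686 were 100% identical. These genes lie on the member's own chromosome, and whether they overlap the member rather than copy it was not tested. The 20 genes and 41 matches can therefore include overlaps. Copies outside the annotated transcripts or outside the coding part were not counted in them, so they are no limit in either direction. Stretches of 100 bases, the read length, that were identical in another annotated gene were absent from 32 genes and made up over 10% of the coding part in 9. For Psma3, 84.5% of such stretches were identical in the pseudogene Gm13835. Psma3 was also the lowest alpha subunit per kb of curated exon, though not of coding length, and the part of the copy in that level was not tested. Psme2 and Psme2b, a single-exon copy on chromosome 11, were identical at 99.3% of coding bases and 100% of residues and shared 49.7% of stretches.

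Psme2b had a base mean of 107, and reads of it and of Psme2 could not all be told apart, so both values are uncertain. Psmg3 shared 43.8% of stretches with Gm26938 on its own chromosome. Psmb5 shared 26.8% with the pseudogene Gm3375, and Psma5 26.8%, Psmb3 20.7% and Psmd11 14.4% with copies of their own. Among the subunits in the immunoproteasome ratios, Psmb6, Psmb9 and Psmb10 had no identical stretch in the coding part. Psmb8 shared 3.43% with a gene annotated as antisense. Psmb7 shared 9.29% with Nek6, which lies on the same chromosome and matched on the opposite strand. Over its whole transcript Psmb9 matched 1 other gene at 95% identity or more. Identical stretches outside the coding part were not counted.

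**Figure D5:**
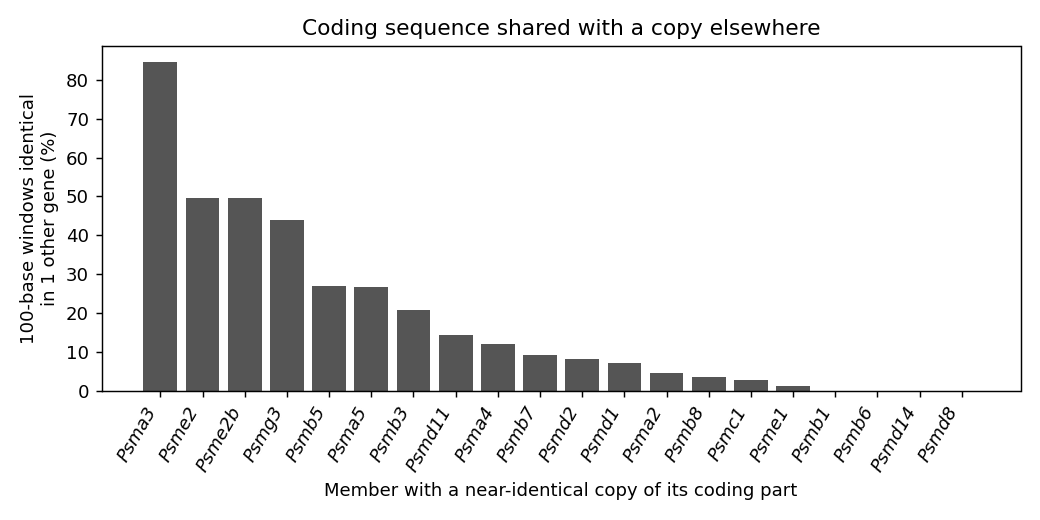
Share of 100-base stretches of the coding part that are identical in another annotated gene (vertical axis, percent, highest single gene) for the 20 genes with a near-identical match. A match can be a copy or a gene annotated on the member's own chromosome. Psma3 is highest at 84.5%, Psme2 and Psme2b share the same stretches at 49.7%, and the last 4 genes share none.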

How the data were processed

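Spinal cord RNA of 5 WT and 5 SOD1 G93A mice was sequenced as stranded paired-end libraries with 100-base reads. According to the methods and the submitters' processing notes, reads were trimmed with Fastp, aligned to mm10 with HISAT2 2.1.0, counted on genes with featureCounts 2.0.2 and compared with DESeq2 by the authors. The gene annotation and the strand setting of the counting are not given in the sources used here. The deposited base mean is a signal value that the authors made by dividing counts by size factors and averaging over all 10 libraries. The other 5 value columns hold the authors' own comparison of the genotypes (fold change, standard error, Wald statistic, p-value and adjusted p-value) and were not used. No column held a single library, so the precision from depth is unknown, and 0 such columns were left unmapped.

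Base means were divided by the union of exons of GENCODE M21 transcripts paired with curated RefSeq accessions (GRCm38), because the reference held no genome or protein sequence. This gave a length to 14548 of the 15918 genes that reached a base mean of 10, and to all 48 members. Proteins were translated from the coding exons and aligned with Biopython 1.88, and copies were searched among GENCODE transcripts with BLAST+ 2.17.0. Calculations used Python 3.11.15 with pandas 2.3.3. The motif search and the union of exon lengths were tested on simulated data, and the other calculations were not. Sequence motifs were read from RefSeq promoters. Genes were named by a rule that took all core, ATPase, immunoproteasome and activator genes, the highest 2 and lowest 2 of every other role or list, and genes under the minimum. Further genes, such as Psmd14, Psmd5, Psmd9, Psmd10, Pomp, Adrm1, Sem1 and Tap2, and the ETS sites printed, were chosen after their values were seen. The members and lists were chosen with earlier results of these data known.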

Additional observations from a re-analysis of the deposited data

How the results depend on the processing

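Every level per kb depends on the length given to each gene, and the deposited means carry no spread between libraries, so the results could not be recomputed without single replicates. No paired analysis was possible because the table holds no values of single libraries. Over all annotated exons, the median per kb was 602 in the core, 553 in the regulatory particle and 179.8 in the immunoproteasome. Over coding length these medians were 2115, 1605 and 442, and as geometric means over curated exons they were 1259, 1263 and 160.7, so the core and the regulatory particle changed order. The longest curated transcript moved the immunoproteasome median to 329.7. Psmb8 over Psmb5 was 2.77% over all exons, 9.96% over coding length and 10.4% without length. Psmb9 over Psmb6 was 1.00%, 2.13% and 1.96%, and Psmb10 over Psmb7 was 48.6%, 24.6% and 24.2%. The immunoproteasome share of catalytic beta level was 11.0% over all exons, 11.0% over coding length and 11.4% without length. The highest over the lowest level was 3.75 and 2.49 in the core over all exons and coding length, 23.7 and 5.39 in the regulatory particle and 28.5 and 10.7 in the immunoproteasome. The members' median percentile of 89.6 became 91.4 with all genes above 0 ranked and 75.3 without length. On the forward strand alone the antioxidant response element was in 3 member promoters, the GC box in 14, the ETS site in 10, the YY1 site in 5 and the interferon-stimulated response element in 3. Local alignment gave identities of 61.9%, 60.4% and 58.6% for Psmb5 with Psmb8, Psmb6 with Psmb9 and Psmb7 with Psmb10. Searching whole transcripts, matches to another annotated gene were found for 24 members at 90% and 17 at 95% identity. The search of the coding part alone, chosen after seeing the data, gave 20 and 14. Psmc5 was the highest and Psmb9 the lowest member with each length tried.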
